A study of Mus musculus with 8 samples.

Results

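The genes described here charge transfer RNAs with amino acids or answer a shortage of amino acids. The set held 40 genes chosen by name: 20 cytosolic aminoacyl-tRNA synthetase genes, 3 transcription factor genes, 4 response and feedback genes, 7 genes of amino acid synthesis and 6 genes of amino acid transport. Their symbols were matched to the gene identifiers of the deposited count files, and 40 of 40 were found among 41214 identifiers. All 40 also passed the filter on low counts that left 16456 genes for testing. The rule itself is a list of names and uses no measured value, but the list was chosen with earlier results of these data known.

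The study sequenced messenger RNA from 8 spleen tumours of C57Bl6 mice, 4 labelled as B cell tumours and 4 as CD4+ T cell tumours. In each lineage 2 tumours carried intact Miz1 (wt) and 2 carried Miz1 without its POZ domain (deltaPOZ). Miz1, encoded by Zbtb17, binds DNA through zinc fingers and pairs with Myc, and the POZ domain lets Miz1 molecules join into larger complexes. The 4 groups are called B wt, B deltaPOZ, T wt and T deltaPOZ, with n = 2 mice each. The labels give no age, no sex, no driver of the B tumours and no means by which the domain was removed. The names under which all T libraries were deposited carry the tag Notch, and those of the T deltaPOZ libraries alone carry the tag ENU as well, with neither tag explained. The B and T libraries also carry different run tags, so run and lineage cannot be told apart.

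Aminoacyl-tRNA synthetases attach each amino acid to its transfer RNA and so supply the ribosome. When an amino acid runs short, uncharged transfer RNA activates the kinase GCN2 (gene Eif2ak4), which phosphorylates the initiation factor eIF2. General translation then slows while the Atf4 message is translated more, so that ATF4 protein can increase at an unchanged Atf4 mRNA level. ATF4 is known to induce asparagine synthetase, serine and proline synthesis enzymes, amino acid transporters and many synthetases, and Myc is known to drive an overlapping set of genes in growing cells.

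The libraries held 44.3 to 58.3 M gene counts, and the normalization factors lay between 0.929 and 1.087. Levels are CPM, the counts of a gene as a share of those of the library, scaled with those factors. Zbtb17 stood at 48.0 to 66.1 CPM in B wt, 49.4 to 59.1 in B deltaPOZ, 42.3 to 49.6 in T wt and 36.9 to 40.1 in T deltaPOZ. Counts over all its exons check little of a deletion of 1 domain. The summed level of 8 B lineage markers was 1818 to 2868 CPM in the B libraries and 25.4 to 137 in the T libraries. That of 10 T lineage markers was 2296 to 3919 CPM in T and 30.9 to 64.4 in B, and Cd8a (356 to 1246 CPM) lay above Cd4 (98.8 to 432) in every T library. Xist had 975 and 1477 CPM in the wt tumours against 0.936 and 0.757 in the deltaPOZ tumours, while Y-linked Ddx3y was reversed, so sex and genotype cannot be told apart in the B tumours. T wt 1 stood apart from the other T libraries, with Xist at 1246 CPM against 11.8 to 35.4 and Ddx3y at 22.5 against 142 to 184. Erythroid markers summed to 4637 to 22602 CPM in T and to at most 222 in B. In whole tumours, fewer cells of a type and less RNA per cell cannot be told apart.

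RefSeq promoters on GRCm38.p6, from 250 bases before to 50 bases after the annotated start, were at hand for 30 of the 40 members. They were searched on both strands for TGATGNAA, the core of the element to which ATF4 binds together with a C/EBP partner. It was found in 10 of the 30 (33.3%), against 1304 of 32851 promoters in the table (3.97%). The list was chosen to hold known ATF4 response genes, so a higher share follows in part from that choice. The carriers included the synthetase genes Gars, Iars, Tars and Yars, and Asns, Chac1, Trib3, Slc7a11 and Pycr1. The windows of 30 bases around 1 match in each of these 9 genes are shown because they are the places where this response element lies in the members described below. Capitals mark the match, each window is written 5′ to 3′ on the strand of its gene, and in 5 of them the element lies on the opposite strand.
Gars, chr6:55037960-55037989, plus strand: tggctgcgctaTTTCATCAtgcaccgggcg
Iars, chr13:49682126-49682155, plus strand: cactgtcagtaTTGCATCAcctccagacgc
Tars, chr15:11399655-11399684, minus strand: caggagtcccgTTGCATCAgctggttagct
Yars, chr4:129189895-129189924, plus strand: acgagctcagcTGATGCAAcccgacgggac
Asns, chr6:7693214-7693243, minus strand: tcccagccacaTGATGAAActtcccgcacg
Chac1, chr2:119351038-119351067, plus strand: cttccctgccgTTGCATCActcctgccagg
Trib3, chr2:152344028-152344057, minus strand: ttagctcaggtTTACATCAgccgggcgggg
Slc7a11, chr3:50443661-50443690, minus strand: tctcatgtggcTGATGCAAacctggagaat
Pycr1, chr11:120643833-120643862, minus strand: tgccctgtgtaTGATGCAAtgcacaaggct
Slc7a11 held a second match at position -47. Counted from the start site, the match began at position -23 in Asns, -30 in Gars, -66 in Slc7a11, -103 in Pycr1 and -193 in Chac1. In Iars, Yars and Trib3 it lay just past the start.

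Of the 10 members with the element, Asns, Pycr1 and Chac1 had the highest log2 fold changes in B, described below. Their 250 bases before the start are shown to place the element in its surroundings. Gpt2 (log2 fold change 1.75 in B) had a promoter without it, and Slc7a11, with a second match, was at -2.07. In B deltaPOZ 9 of the 10 carriers were higher (median log2 fold change 0.78). So were 19 of the 20 searched members without the element (median 0.53). Capitals again mark the match.
Asns, chr6:7693210-7693459, minus strand: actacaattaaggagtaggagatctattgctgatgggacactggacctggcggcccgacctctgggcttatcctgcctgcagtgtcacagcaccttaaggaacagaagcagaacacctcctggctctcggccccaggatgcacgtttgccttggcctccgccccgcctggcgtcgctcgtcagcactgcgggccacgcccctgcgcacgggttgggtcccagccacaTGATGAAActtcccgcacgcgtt
Chac1, chr2:119350992-119351241, plus strand: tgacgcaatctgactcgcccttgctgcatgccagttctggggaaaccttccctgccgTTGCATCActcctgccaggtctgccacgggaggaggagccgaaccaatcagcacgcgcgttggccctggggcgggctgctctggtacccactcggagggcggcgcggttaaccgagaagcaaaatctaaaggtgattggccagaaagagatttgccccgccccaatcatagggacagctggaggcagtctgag
Pycr1, chr11:120643749-120643998, minus strand: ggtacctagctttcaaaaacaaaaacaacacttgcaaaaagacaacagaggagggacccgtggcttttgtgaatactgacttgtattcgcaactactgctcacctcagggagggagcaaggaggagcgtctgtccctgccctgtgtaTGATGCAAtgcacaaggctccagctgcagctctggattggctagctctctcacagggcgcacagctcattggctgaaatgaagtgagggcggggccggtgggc
The E-box CACGTG, a sequence that Myc binds with its partner Max, was found on both strands in 5 of the 30 member promoters (16.7%), among them Aldh18a1, Farsb, Iars and Tars, against 7.15% of all promoters in the table. Iars and Tars held both motifs, at places that did not overlap. A match is a string of letters, and binding was not measured here. Promoters were not used here for Cars, Hars, Lars, Nars, Rars, Vars, Wars, Slc7a5, Slc1a5 and Eif4ebp1.

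In the B tumours the members were compared between deltaPOZ and wt to see what loss of the POZ domain goes with. Of the 40 members, 36 had a higher mean level in deltaPOZ, with a median log2 fold change of 0.59. Over all tested genes the median was -0.01 and 48.1% of genes were higher. By edgeR's quasi-likelihood test 0 members passed at an adjusted p under 0.05, where 0.00608% of all tested genes passed, and the smallest adjusted p was 0.279. At an unadjusted p under 0.05 there were 15 members, all with higher levels in deltaPOZ, against 5.68% of all tested genes in that direction. Both deltaPOZ libraries lay above both wt libraries for 29 members, where 19.9% of all tested genes did so, and below both for Ddit3 and Slc1a5, where 19.1% did. DESeq2 called Sars and Pycr1 higher in B deltaPOZ, against 1.82% of all tested genes called in that direction, and limma-voom called 0 members, with 0.0365% of all tested genes. Without the filter on low counts edgeR called 8 members, all higher (Aldh18a1, Eprs, Chac1, Yars, Asns, Gpt2, Ppp1r15a and Sars), where it called 4.79% of all genes.

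The synthetase genes stood higher in B deltaPOZ in 19 of 20 cases, with a median log2 fold change of 0.58 and a range from -0.01 (Vars) to 0.90 (Yars). Sars, which charges serine (ENSMUSG00000068739, GRCm38 chromosome 3, 108424865 to 108445209), had 136 and 161 CPM in the wt tumours against 276 and 259 in the deltaPOZ tumours. The groups did not overlap, and its log2 fold change of 0.85 (SE 0.23) had the smallest p of the 40 members (edgeR adjusted p = 0.279; DESeq2 adjusted p = 0.0473). Eprs, which charges glutamate and proline (ENSMUSG00000026615, chromosome 1, 185363044 to 185428360), had 511 and 696 CPM in the wt tumours against 1075 and 1092 in the deltaPOZ tumours. Its log2 fold change was 0.84 (SE 0.29, edgeR adjusted p = 0.354), and the deltaPOZ libraries lay closer to each other than the wt libraries did.

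Gars (glycine), Kars (lysine), Tars (threonine) and Lars (leucine) were also higher in both deltaPOZ libraries than in either wt library. Gars had 262 and 295 CPM in the wt tumours against 420.2 and 457 in the deltaPOZ tumours (log2 fold change 0.65, SE 0.21, edgeR adjusted p = 0.327). Kars stood at 325 and 313 against 440.4 and 493 CPM (0.55, SE 0.17, edgeR adjusted p = 0.323). Tars stood at 187 and 203 against 334 and 272 CPM (0.64, SE 0.20, edgeR adjusted p = 0.327). In none of these did a deltaPOZ library reach down to a wt library. Lars stood at 242 and 339 against 447 and 529.8 CPM (0.75, SE 0.26, edgeR adjusted p = 0.361). Yars (tyrosine) stood at 77.3 and 106 against 155 and 188 CPM (0.90, SE 0.30, edgeR adjusted p = 0.34). Yars lies on chromosome 4, and the 285 tested genes within 10 Mb of it lay at a median of 0.49 (log2) in the same comparison. Those within 10 Mb of Sars lay at 0.23, and those near Gars and Lars at -0.31 and -0.34.

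Vars (valine), Wars (tryptophan), Farsa (a phenylalanine subunit) and Hars (histidine) were the synthetase genes whose B groups overlapped. Vars had 632 and 432 CPM in the wt tumours against 531 and 523 in the deltaPOZ tumours, so both deltaPOZ libraries lay between the wt libraries. Wars stood at 139.7 and 108 against 142 and 119 CPM. The 231 tested genes within 10 Mb of Wars on chromosome 12 lay at a median of -0.55 (log2) between the B genotypes. The 8 synthetases that are held in the multisynthetase complex (Eprs, Iars, Lars, Qars, Mars1, Kars, Rars and Dars) were all higher in B deltaPOZ without overlap, with a median of 0.58, and the 12 outside it had a median of 0.53. In 16 of the 20 synthetase genes the groups did not overlap.

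**Figure D1:**
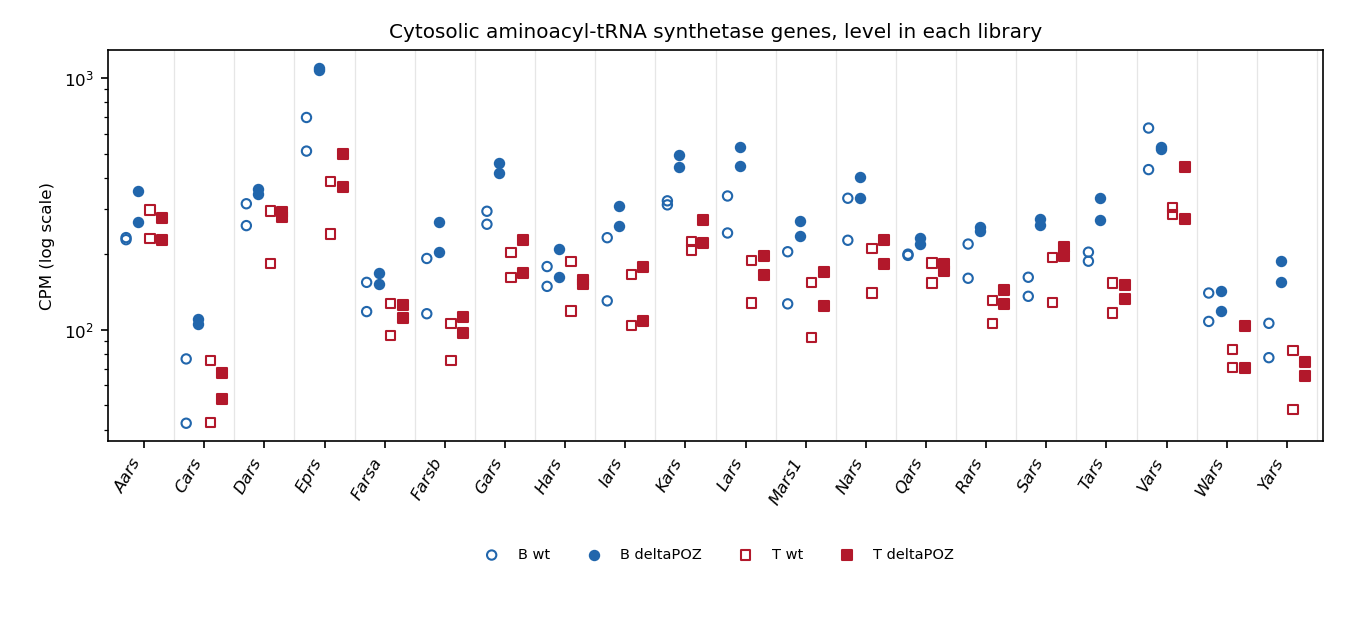
Level of each of the 20 cytosolic synthetase genes in the 8 libraries, in CPM on a log axis, with blue circles for B and red squares for T, open for wt and filled for deltaPOZ. In B both filled circles lie above both open circles for 16 genes, while in T both filled squares lie above both open ones for Sars alone. Single filled squares lie above the open ones in other genes, as for Vars (442 CPM in T deltaPOZ 1 against 287 and 305 in T wt).

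The 7 genes of amino acid synthesis were all higher in B deltaPOZ, with a median log2 fold change of 0.92, and 6 of them without overlap. Asns, the asparagine synthetase and a standard readout of the ATF4 response (ENSMUSG00000029752, chromosome 6, 7675169 to 7693254), had 52.9 and 81.9 CPM in the wt tumours against 163 and 219.8 in the deltaPOZ tumours. That is a fold of 2.84 (log2 1.51, SE 0.49), which did not pass (edgeR adjusted p = 0.335). Pycr1, which makes proline from pyrroline carboxylate (ENSMUSG00000025140, chromosome 11, 120635712 to 120643769), had 2.71 and 3.05 CPM in the wt tumours against 9.48 and 7.06 in the deltaPOZ tumours. Its fold of 2.87 (log2 1.52, SE 0.45) was called by DESeq2 (adjusted p = 0.0129) and not by edgeR (adjusted p = 0.303). Aldh18a1, the enzyme before Pycr1 in proline synthesis, stood at 96.95 and 142 against 221 and 232 CPM (log2 fold change 0.92, SE 0.35, edgeR adjusted p = 0.385). Both proline genes thus stood higher in both deltaPOZ libraries than in either wt library.

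Of the serine synthesis genes, Psph, which removes the last phosphate, had 33.6 and 34.0 CPM in the wt tumours against 45.9 and 50.6 in the deltaPOZ tumours (log2 fold change 0.51, SE 0.17, edgeR adjusted p = 0.346). Phgdh, which begins the route, stood at 354 and 324 against 515 and 424 CPM, without overlap. Psat1, the transaminase between them, stood at 222 and 341 against 335 and 417 CPM, and its groups overlapped. The 292 tested genes within 10 Mb of Phgdh lay at a median of 0.28 (log2) between the B genotypes, and those near Asns at -0.37. Gpt2, a mitochondrial alanine transaminase, had 2.45 and 10.4 CPM in the wt tumours against 26.7 and 16.5 in the deltaPOZ tumours (log2 fold change 1.75, SE 0.69, edgeR adjusted p = 0.392), with a gap between the wt libraries that was wider than that between the deltaPOZ libraries on a log scale. Psph shares 452 exonic bases with the opposite-strand gene Cct6a, whose reads cannot be told apart if strand was ignored in counting.

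The 4 response and feedback genes were also all higher in B deltaPOZ, with a median log2 fold change of 1.24. Chac1, a glutathione-degrading enzyme gene induced through ATF4 (ENSMUSG00000027313, chromosome 2, 119351229 to 119354381), had the highest fold of the members. It stood at 0.209 and 0.222 CPM in B wt, which were 11 and 10 counts, and at 1.95 and 2.81 CPM in B deltaPOZ, which were 100 and 141 counts. The log2 fold change of 3.45 (SE 1.16) did not pass (edgeR adjusted p = 0.344; DESeq2 adjusted p = 0.0544). Eif4ebp1, an inhibitor of cap-dependent translation, stood at 34.1 and 36.2 against 50.7 and 53.8 CPM (0.57, SE 0.20, edgeR adjusted p = 0.37), with little spread within either group. Ppp1r15a, which brings a phosphatase to eIF2 and so ends the response, stood at 12.5 and 14.9 against 38.3 and 21.3 CPM, without overlap. Trib3, a pseudokinase that damps ATF4, stood at 0.588 and 0.912 CPM in B wt, 3.08 in B deltaPOZ 1 and 0.777 in B deltaPOZ 2, so its higher mean rested on B deltaPOZ 1. Tested genes within 10 Mb of Trib3 lay at a median of 0.13 (log2) from the B mean in B deltaPOZ 1 and -0.53 in B deltaPOZ 2.

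The transcription factors did not share this pattern. Atf4 (ENSMUSG00000042406, chromosome 15, 80255184 to 80257541) had 309 and 248 CPM in the wt tumours against 326 and 269.7 in the deltaPOZ tumours, so the groups overlapped. Its log2 fold change was 0.10 (SE 0.31, edgeR adjusted p = 0.927). Atf5, a relative that is also translated more under stress, stood at 2.56 and 3.91 against 3.53 and 3.99 CPM. Ddit3, which encodes CHOP, had 4.82 and 4.56 CPM in the wt tumours against 4.17 and 4.07 in the deltaPOZ tumours, slightly lower without overlap. Ddit3 and Mars1 share 68 exonic bases on opposite strands.

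The 6 transporters had a median of 0.40 in B. Slc7a1, which imports arginine and lysine, had 82.9 and 121 CPM in the wt tumours against 178 and 161 in the deltaPOZ tumours (0.73, SE 0.28, edgeR adjusted p = 0.385). Slc7a5 and Slc3a2 encode the light and heavy chains of the exchanger that brings in leucine and other large neutral amino acids. Slc7a5 stood at 74.6 and 107 against 137 and 153 CPM, and Slc3a2 at 50.4 and 71.9 against 106 and 96.1 CPM, so both chains were higher in both deltaPOZ libraries. Slc38a2 stood at 289 and 294 against 337 and 299 CPM, a narrow gap. The glutamine transporter Slc1a5 ran the other way, with 438 and 430.01 CPM in the wt tumours against 334 and 414 in the deltaPOZ tumours. Slc7a11, the cystine importer, stood at 0.456 CPM in B wt 1 and 4.51 in B wt 2 against 0.722 and 0.458 in B deltaPOZ, so its negative fold rested on B wt 2.

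**Figure D2:**
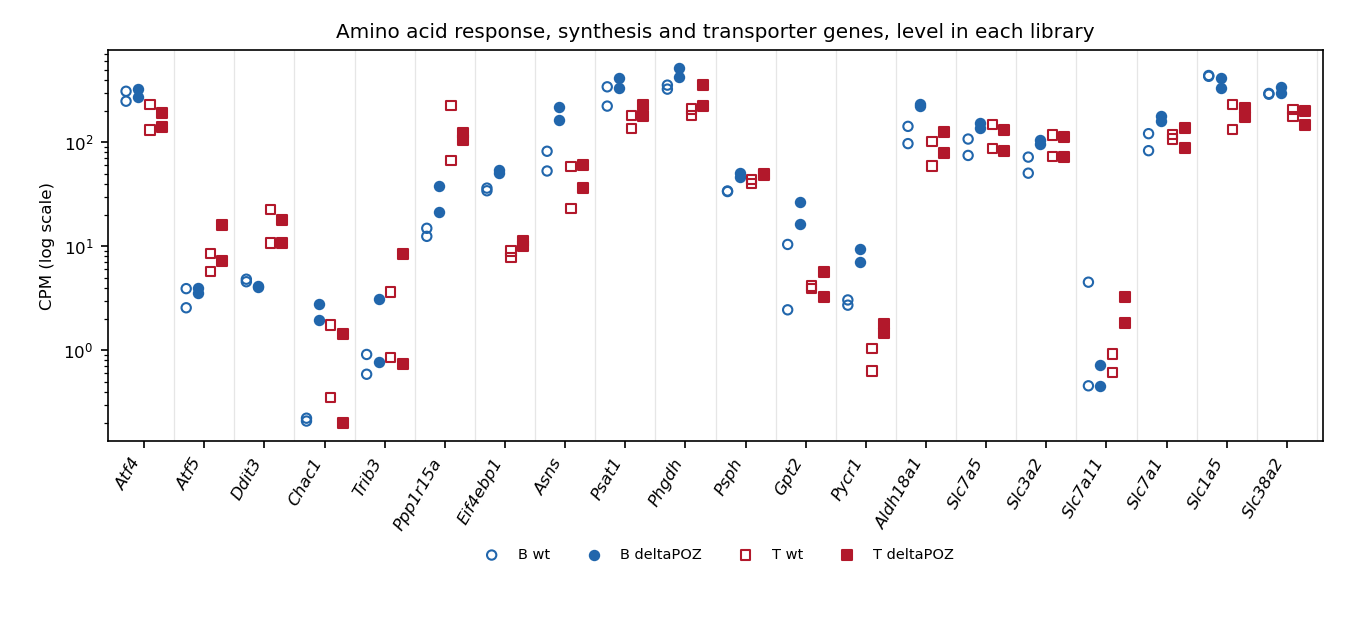
Level of the 20 other members in the 8 libraries, in CPM on a log axis, with the same symbols: blue circles for B, red squares for T, open for wt and filled for deltaPOZ. Asns, Chac1, Pycr1 and Aldh18a1 show the filled circles clear above the open ones in B, whereas Atf4 shows them mixed and Slc7a11 shows 1 open circle (B wt 2, 4.51 CPM) far above the rest of B.

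Other features of the B libraries moved with genotype, and their part in these values was not tested. The summed level of 8 markers of cycling cells was 5830 to 5835 CPM in B wt and 4538 to 4996 in B deltaPOZ. That of 8 neutrophil markers was 118 to 717 CPM in B wt and 51.0 to 56.2 in B deltaPOZ, that of 8 erythroid markers 4.87 to 5.09 and 12.4 to 222, and that of 6 plasma cell markers 437 to 823 and 244 to 417. Markers of stroma and endothelium summed to 187 to 191 and 102 to 129 CPM, and B lineage markers to 2309 to 2868 and 1818 to 1918. Pecam1 made most of the stroma and endothelium sum, at 184 and 121 CPM in B wt and 68.7 and 111 in B deltaPOZ. The largest part of the plasma cell sum came from Irf4 (wt 622 and 252 CPM, deltaPOZ 231 and 142). Jchain, Mzb1, Prdm1 and Tnfrsf17 of that list overlapped between the B genotypes. By edgeR 0 of the 6 plasma cell markers had an unadjusted p under 0.05, so a shift of that list as a whole was not shown. Lower in B deltaPOZ without overlap were 2 of 7 stroma and endothelium and 2 of 6 plasma cell markers. So were 4 of 8 B lineage, 5 of 8 cycling and 8 of 8 neutrophil markers, against 19.1% of all tested genes. Higher without overlap were 8 of 8 erythroid markers, against 19.9%. No marker of the B lineage, neutrophil, plasma cell or cycling lists was at 0 in any library. B wt 1 was the lowest of the B libraries for 31 members, and the 40 members lay at a median of -0.51 (log2) from the B mean there, -0.13 in B wt 2, 0.23 in B deltaPOZ 1 and 0.31 in B deltaPOZ 2. Without B wt 1 the median fold change was 0.47 with 36 members higher. Without B deltaPOZ 2 the median was 0.52 with 35 higher. In both fits fewer members had an unadjusted p under 0.05 than with all libraries. Both left a group with 1 library. The share of all tested genes in them is not given here, so that fall cannot be set against it.

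The T tumours were compared in the same way, with the tag ENU on both T deltaPOZ libraries as a difference from T wt that cannot be told apart from genotype. Here 31 of 40 members had a higher mean in deltaPOZ, with a median log2 fold change of 0.18 against 0.00 over all tested genes. By edgeR 0 members passed (0% of all tested genes did), and 0 members had an unadjusted p under 0.05, where 2.65% of all tested genes did. DESeq2, which called 0.298% of all tested genes, and limma-voom also called 0 members. The groups did not overlap, with deltaPOZ higher, for 6 members (Sars, Phgdh, Psph, Slc7a11, Eif4ebp1 and Pycr1) against 15.4% of all tested genes, and with deltaPOZ lower for 0 members against 17%. The count of higher members rested on single libraries: it was 15 without T wt 1 and 17 without T deltaPOZ 1, with medians of -0.05 and -0.02, but 39 without T wt 2 or without T deltaPOZ 2. T wt 1 is the library whose Xist and Ddx3y levels stood apart.

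Markers of other kinds moved with the T groups too, and their part in these values was not tested. Cd4 was at 331 and 432 CPM for wt and at 98.8 and 118 for deltaPOZ. T lineage markers summed to 3146 to 3919 CPM for wt and 2296 to 2633 for deltaPOZ. Of the 10, 6 were lower in deltaPOZ without overlap, against 17% of all tested genes. By edgeR 0 of the 10 had an unadjusted p under 0.05, where 2.65% of all tested genes did. Macrophage markers summed to 138 to 196 and 263 to 264 CPM. By their means 8 of 8 were higher in deltaPOZ, as were 49.8% of all tested genes. Without overlap 4 of the 8 were higher, against 15.4% of all tested genes. By edgeR 0 of the 8 had an unadjusted p under 0.05. No marker of these lists was at 0 in any library.

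Phgdh had the smallest p in T, with 209 and 179 CPM in the wt tumours against 221 and 354 in the deltaPOZ tumours (0.56 on the log2 scale, SE 0.25, edgeR adjusted p = 1), and the value of T deltaPOZ 2 made most of that gap. Pycr1 stood at 1.04 and 0.631 CPM against 1.78 and 1.48 (0.96, SE 0.45, edgeR adjusted p = 1). Slc7a11 stood at 0.613 and 0.919 CPM against 3.24 and 1.82 (1.72, SE 1.004, edgeR adjusted p = 1). These 3 members had no overlap between the T groups, and none passed. Tested genes within 10 Mb lay at medians (log2) of 0.12 for Phgdh, 0.20 for Slc7a11 and 0.04 for Pycr1 between the T genotypes. Those near Sars lay at 0.11. In T deltaPOZ 2 the genes near Phgdh lay at a median of 0.15 from the T mean. The part of these regions in the values was not tested. Atf4 had 131 and 231 CPM in the wt tumours against 189 and 141 in the deltaPOZ tumours, with both deltaPOZ libraries between the wt libraries (log2 fold change -0.14, SE 0.31, edgeR adjusted p = 1). Asns had 23.0 and 58.7 CPM in the wt tumours against 60.9 and 36.3 in the deltaPOZ tumours, and Chac1 at 0.353 and 1.75 against 1.45 and 0.199. In both genes the 2 wt libraries differed from each other more than the group means did.

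**Figure D3:**
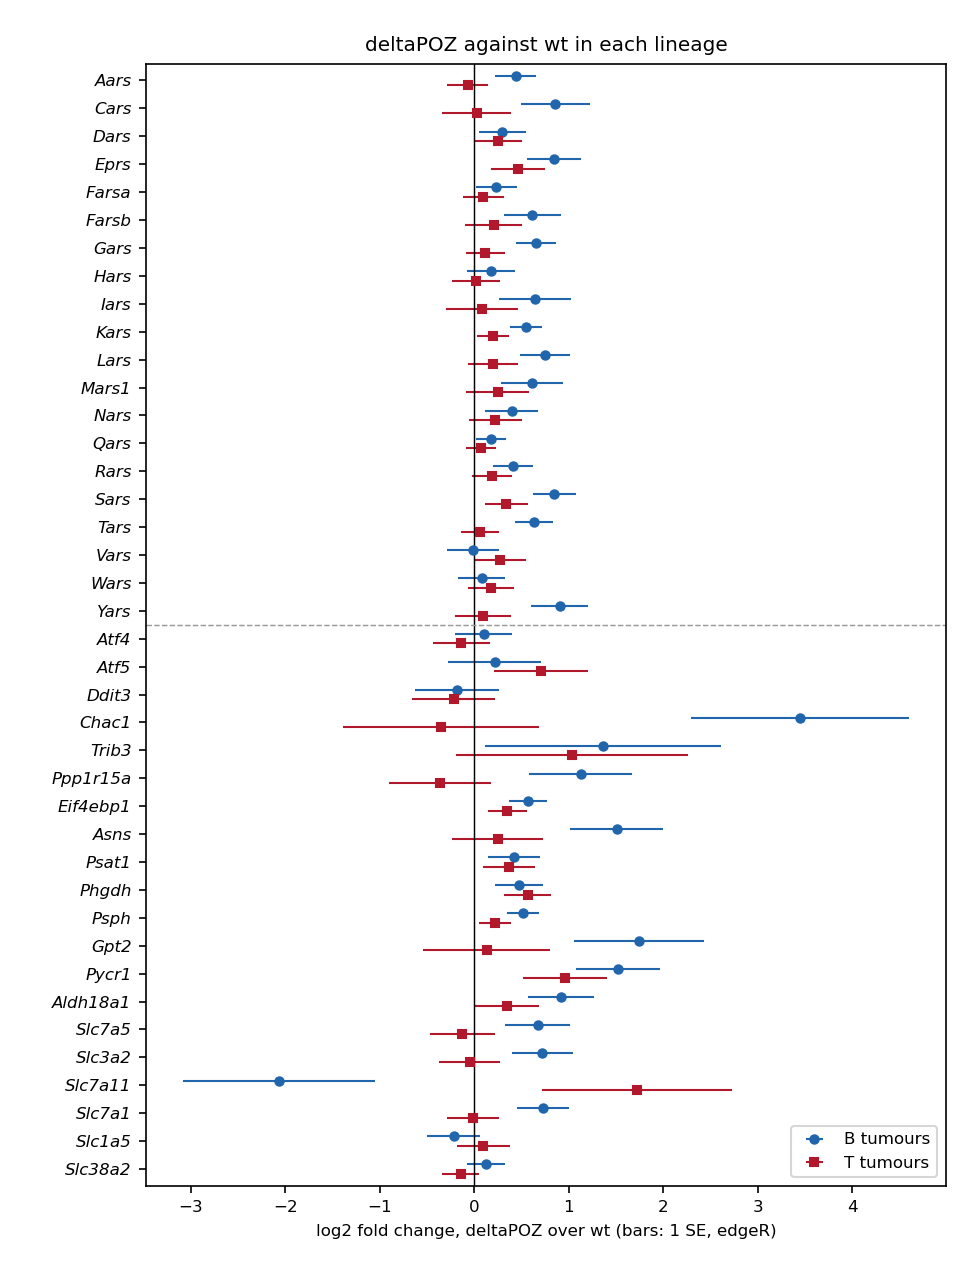
Log2 fold change of deltaPOZ over wt for each member in B tumours (blue circles) and T tumours (red squares), from the edgeR fit of all 8 libraries, with bars of 1 SE and a dashed line between the 20 synthetase genes and the other members. In B 36 of 40 points lie to the right of 0 with a median of 0.59, and in T 31 of 40 with a median of 0.18.

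Over both lineages together, with 4 deltaPOZ against 4 wt libraries, 35 of 40 members had a higher mean in deltaPOZ and all 20 synthetase genes did, with a median of 0.37 for the members and -0.00 for all tested genes. By edgeR 0 members passed (0% of all tested genes did), and 13 members, all higher, had an unadjusted p under 0.05, against 4.19% of all tested genes in that direction. The count of 13 fell in some fits without 1 library and rose in others. The share of all tested genes in those fits is not given here. The median of the members was 0.27 without T wt 1 or B wt 1, 0.28 without T deltaPOZ 1 and 0.51 without B wt 2. Pycr1 had the smallest p of the members, at 1.24 on the log2 scale (SE 0.32, edgeR adjusted p = 0.424), and DESeq2 called it alone among the members (adjusted p = 0.00658), where it called 0.747% of all tested genes higher. Sars followed (0.59, SE 0.16, edgeR adjusted p = 0.457), then Eprs (0.65, SE 0.20, edgeR adjusted p = 0.505) and Eif4ebp1 (0.46, SE 0.14, edgeR adjusted p = 0.505). The other 9 were Kars, Psph, Phgdh, Gars, Aldh18a1, Asns, Lars, Tars and Yars, with log2 fold changes from 0.35 to 0.88. Without the filter on low counts edgeR called Aldh18a1, Eprs, Asns and Sars, where it called 3.21% of all genes. Atf4 was at -0.02 (SE 0.22, edgeR adjusted p = 0.997).

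Whether the effect of the deletion differed between lineages was tested as the T change minus the B change. It was negative for 34 of 40 members, with a median of -0.36 against 0.02 over all tested genes. That median was -0.13 without T wt 2, -0.22 without T deltaPOZ 2 and -0.23 without B wt 1, and -0.61 without either T wt 1 or B wt 2. By edgeR 0 members passed (0% of all tested genes did), and 2 members had an unadjusted p under 0.05, where 6.26% of all tested genes did. Slc7a11 differed by 3.79 (SE 1.43, edgeR adjusted p = 0.765), a value that takes in the single high library B wt 2. Chac1 differed by -3.81 (SE 1.53, edgeR adjusted p = 0.795). Tars came next at -0.57 (SE 0.28, edgeR adjusted p = 0.809), and Atf4 was at -0.23 (SE 0.43, edgeR adjusted p = 0.977). Without the filter on low counts edgeR called this difference for Chac1 (adjusted p = 0.0475), Slc7a11 (0.0277) and Ppp1r15a (0.0147), where it called 2.84% of all genes.

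The members also varied from library to library within a genotype, most between the T wt libraries. Set against the mean of the 4 T libraries, the 40 members lay at a median of -0.36 (log2) in T wt 1, 0.16 in T wt 2, 0.26 in T deltaPOZ 1 and -0.07 in T deltaPOZ 2, while the median over all tested genes lay between -0.02 and 0.01 in every library. In T wt 1 a single member, Slc38a2, was above the T mean, and in T deltaPOZ 1 38 were. The 20 synthetase genes lay at -0.35, 0.16, 0.21 and -0.03 in the same order. T wt 1 was the lowest T library for 28 members and T deltaPOZ 2 for 10, and T deltaPOZ 1 was the highest for 22 and T wt 2 for 15. Thus a wt and a deltaPOZ library were high together, and a wt and a deltaPOZ library were low together. In T wt 1 the neutrophil markers summed to 856 CPM, against 51.6 in T wt 2, 411 in T deltaPOZ 1 and 105 in T deltaPOZ 2, and the erythroid markers to 4637, 22602, 7610 and 12467 in the same order. Their part in the spread was not tested.

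**Figure D4:**
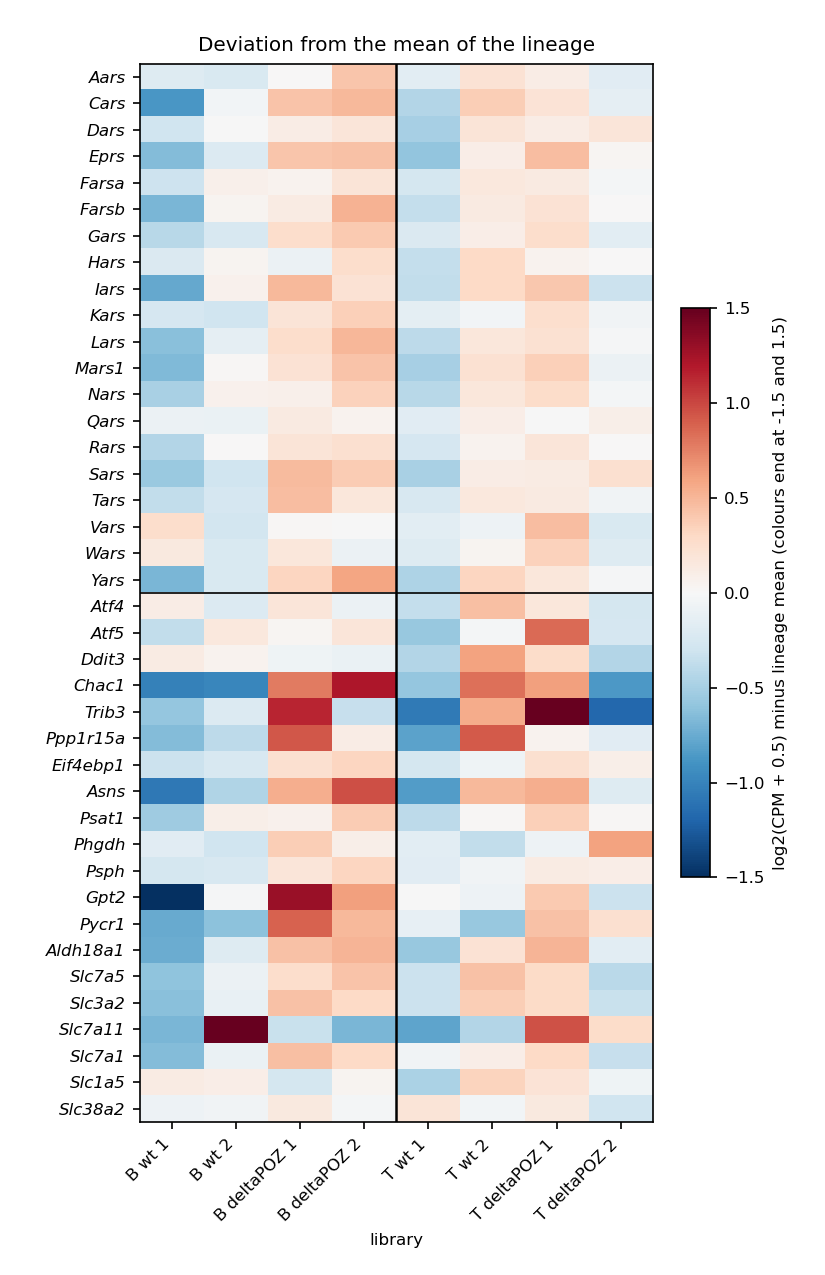
Deviation of each member from the mean of its lineage in each library, as log2(CPM + 0.5) minus the mean of the 4 libraries of that lineage, with red above and blue below and the scale ending at 1.5 in either direction. B wt 1 (median -0.51) and T wt 1 (median -0.36) are blue for most rows, and T wt 2 (0.16) and T deltaPOZ 1 (0.26) are red, so the T columns do not divide by genotype.

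The T tumours were then compared with the B tumours over both genotypes, with run tag and lineage confounded. Here 23 of 40 members passed by edgeR, 3 higher in T (19.3% of all tested genes passed in that direction) and 20 lower in T (16% did). The lineages did not overlap for 3 members higher in T (20.1% of all tested genes) and 15 lower in T (17%). The median log2 difference of the members was -0.70, against 0.05 over all tested genes. All 20 synthetase genes had lower means in T and 11 passed: Eprs, Farsb, Gars, Kars, Lars, Nars, Rars, Tars, Vars, Wars and Yars. The fits that follow leave out libraries and so leave groups with 1 sample. Shares of all tested genes called in those fits are not given here. Calls lost by members thus cannot be set against calls lost over all genes. Leaving out each of the 8 libraries in turn kept 14 to 20 of the member calls, with the fewest, 14, without T deltaPOZ 2, and 12 members passed in every such fit: Ddit3, Eif4ebp1, Eprs, Gars, Kars, Lars, Ppp1r15a, Pycr1, Rars, Slc1a5, Slc38a2 and Tars. With B wt 2, T wt 1 and T deltaPOZ 2 all left out, Eif4ebp1 and Ppp1r15a alone passed. The call of Phgdh was kept in 6 of the 8 fits and lost without B wt 1 or T wt 2. The call of Nars was kept in 3 of the 8 fits and lost without T wt 1, either T deltaPOZ library, B wt 2 or B deltaPOZ 2. The call of Wars was kept in 3 of the 8 fits and lost without either T wt library, T deltaPOZ 2, B wt 1 or B deltaPOZ 1. The call of Vars was kept only in the fits without B wt 2 and without T deltaPOZ 1, which are 2 of the 8.

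Lars spanned 242 to 529.8 CPM in the B tumours against 127 to 196 in the T tumours, and the lineages did not overlap (log2 difference -1.16, SE 0.19, edgeR adjusted p = 0.00507). Eprs spanned 511 to 1092 CPM in B tumours against 239.5 to 497 in T tumours (-1.14, SE 0.21, edgeR adjusted p = 0.00722). Gars spanned 262 to 457 CPM in B tumours against 161 to 226 in T tumours (-0.89, SE 0.15, edgeR adjusted p = 0.00558). Each of these 3 genes was lower in every T library than in any B library. Tars was lower without overlap too, spanning 187 to 334 CPM in B tumours against 116 to 153 in T tumours (-0.82, SE 0.14, edgeR adjusted p = 0.00648), as was Farsb, from 116 to 267 and from 75.4 to 112 (-0.97, SE 0.21, edgeR adjusted p = 0.0144). Yars also passed (-0.89, SE 0.21, edgeR adjusted p = 0.0183), with T values of 48.0 to 82.6 CPM that overlapped the B values of 77.3 to 188. The calls of Farsb (adjusted p = 0.057) and Yars (0.0686) were lost in some edgeR fits without 1 library: that of Farsb without T wt 1 or T deltaPOZ 2, and that of Yars without B deltaPOZ 2 or T deltaPOZ 2. Aars stood at 228 to 356 CPM in B and 227 to 299 in T, and its log2 difference of -0.05 was the smallest of the synthetases.

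The transcription factors went in opposite directions between the lineages. Atf4 was lower in T, spanning 248 to 326 CPM in B tumours against 131 to 231 in T tumours without overlap (-0.74, SE 0.22, edgeR adjusted p = 0.0378), though this call was kept in 2 of the 8 fits without 1 library, those without B wt 2 and T wt 2 (largest adjusted p = 0.123). Ddit3 was higher in T, at 10.7 to 22.7 CPM against 4.07 to 4.82 in B (1.82, SE 0.32, edgeR adjusted p = 0.00678). Atf5 was higher as well, at 5.74 to 16.1 CPM against 2.56 to 3.99 (1.39, SE 0.35, edgeR adjusted p = 0.0239), a call kept in 3 of the 8 fits, those without B wt 2, T wt 1 and T deltaPOZ 2. Ppp1r15a, the phosphatase subunit named above (ENSMUSG00000040435, chromosome 7, 45522916 to 45526268), had the largest difference of all members. It stood at 12.5 to 38.3 CPM in B and at 67.2 to 224 in T, which is 6.37-fold higher (log2 2.67, SE 0.41, edgeR adjusted p = 0.00421).

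Eif4ebp1 (ENSMUSG00000031490, chromosome 8, 27260329 to 27276674) differed most in the other direction. It stood at 34.1 to 53.8 CPM in B and at 7.78 to 11.3 in T (log2 -2.18, SE 0.15, edgeR adjusted p = 0.000366), and the spread within each lineage was small beside that gap. Pycr1 was lower in T at 0.631 to 1.78 CPM against 2.71 to 9.48 (-2.06, SE 0.32, edgeR adjusted p = 0.00459). Asns was lower in T by its mean, at 23.0 to 60.9 CPM against 52.9 to 219.8, with overlap (-1.35, SE 0.35, edgeR adjusted p = 0.0242). Psat1 (-0.86, SE 0.20, edgeR adjusted p = 0.0156) and Aldh18a1 (-0.86, SE 0.25, edgeR adjusted p = 0.0344) passed with overlap too. The call of Asns was lost without B wt 2, B deltaPOZ 2 or T deltaPOZ 2 (at most 0.0823), that of Psat1 without T wt 1 or T deltaPOZ 2 (0.0606), and that of Aldh18a1 in 5 of the 8 edgeR fits: without B wt 2, B deltaPOZ 1, B deltaPOZ 2, T wt 1 or T deltaPOZ 2 (at most 0.105). Slc1a5 stood at 334 to 438 CPM in B and at 132 to 232 in T (-1.10, SE 0.20, edgeR adjusted p = 0.00754), the clearest gap among the transporters. Phgdh and Slc38a2 were the other members called lower. Psph, Slc7a5, Slc3a2, Slc7a1, Slc7a11, Chac1, Trib3 and Gpt2 did not pass.

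**Figure D5:**
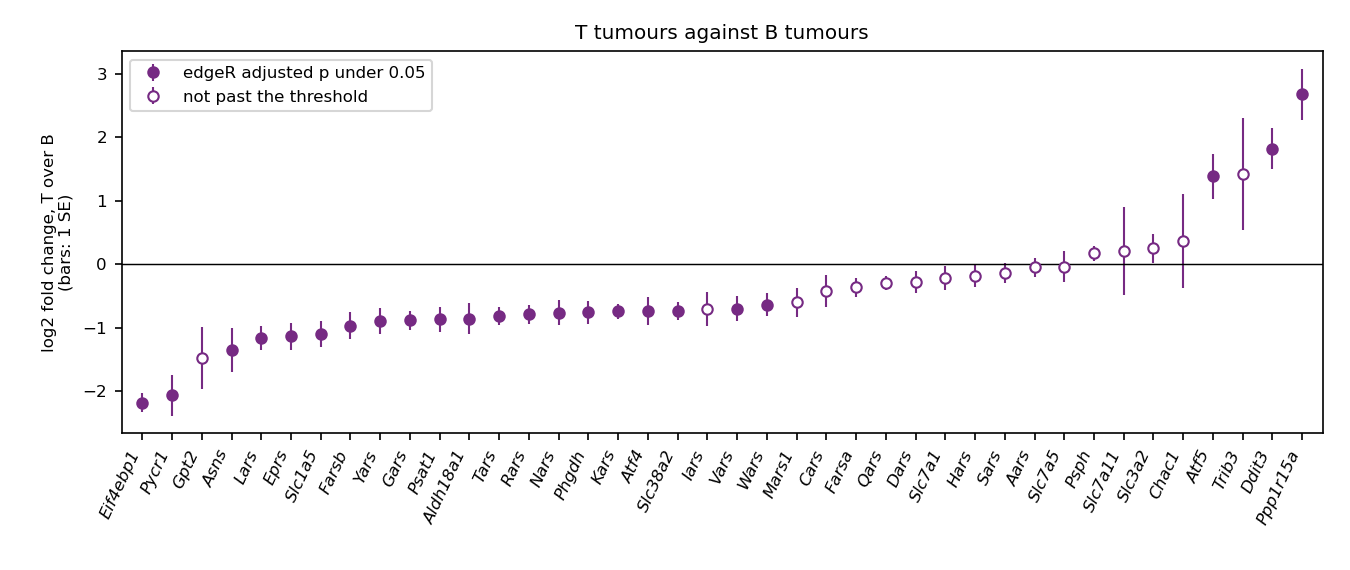
Log2 fold change of T over B tumours for the 40 members in order of size, from the edgeR fit over both genotypes, with bars of 1 SE and filled points for an adjusted p under 0.05. The 20 filled points below 0 run from Eif4ebp1 (-2.18) to Wars, and the 3 above 0 are Atf5 (1.39), Ddit3 (1.82) and Ppp1r15a (2.67).

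Between genes, levels were compared per kilobase of annotated exon, as a mean over libraries. Phgdh was the highest member in B (163 CPM per kb) and in T (96.9), followed by Atf4 (122 and 73.4). Gars (115 in B), Slc1a5 (96.8) and Vars (94.4) came next in B. Among the synthetases Cars was the lowest in both lineages, at 12.7 CPM per kb in B and 9.07 in T. Slc7a11 was the lowest member in both lineages (0.110 and 0.118). Trib3 came next in B (0.630, with 1.61 in T), then Chac1 (0.793 and 0.572), with Pycr1 at 1.42 in B and 0.313 in T. Ppp1r15a moved from 7.40 CPM per kb in B to 44.1 in T.

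Other genes of the pathway were taken from lists of their own, all in B by edgeR unless another test is named. Of 17 mitochondrial synthetase genes 15 had a higher mean in deltaPOZ, with a median of 0.32, and 0 passed. Tars2, the mitochondrial threonine synthetase, had the smallest p among them (log2 fold change 0.68, SE 0.26, edgeR adjusted p = 0.391), at 70.5 and 105 CPM in wt and 154 and 127 in deltaPOZ. Of 8 genes for the scaffold of the multisynthetase complex and for transfer RNA handling 5 were higher and 3 lower in deltaPOZ. Their median was 0.13, and 0 passed. Xpot, which exports transfer RNA from the nucleus, had 148 and 226 CPM in the wt tumours against 361 and 405 in the deltaPOZ tumours (1.04, SE 0.33, edgeR adjusted p = 0.327). Of 34 other reported ATF4 response genes 18 were higher and 0 passed by edgeR, with a median of 0.19. Of those 34 genes, 7 higher and 1 lower had an unadjusted p under 0.05, against 5.68% of all tested genes higher and 1062 of 16456 lower. The groups did not overlap for 12 higher and 4 lower, against 19.9% and 19.1% of all tested genes. DESeq2 called 4 higher (Cbs, Slc1a4, Slc6a9 and Slc7a3), against 1.82% of all tested genes.

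Some genes in that wider list were far apart between the B groups. Slc6a9, a glycine transporter, had 0.0949 and 0.311 CPM in the wt tumours against 5.07 and 8.85 in the deltaPOZ tumours (log2 fold change 5.11, SE 0.73, edgeR adjusted p = 0.0955). Slc7a3, an arginine and lysine transporter, stood at 0.0949 and 0.267 CPM against 10.4 and 3.45 (5.26, SE 0.87, edgeR adjusted p = 0.142). Aldh1l2, a mitochondrial folate enzyme gene, stood at 0 and 0.0222 CPM against 0.332 and 0.518. All 3 were near the limit of detection in B wt, where a count of 0 allows up to 0.0529 to 0.0677 CPM by counting error alone. For the kinases and factors around eIF2, 8 of 15 genes were higher and 0 passed. The GCN2 gene Eif2ak4 had 75.0 and 72.6 CPM in the wt tumours against 122 and 114 in the deltaPOZ tumours (0.67, SE 0.19, edgeR adjusted p = 0.299; DESeq2 adjusted p = 0.0496). The PERK gene Eif2ak3 stood at 138 and 88.5 against 70.9 and 48.2 CPM (-0.93, SE 0.33, edgeR adjusted p = 0.37). Of 23 genes for amino acid sensing by mTORC1 12 were higher and 0 passed, and Rragd, a Rag GTPase of that pathway, had 37.0 and 25.9 CPM in the wt tumours against 4.56 and 6.38 in the deltaPOZ tumours (-2.52, SE 0.31, edgeR adjusted p = 0.0729), which DESeq2 called lower, in which direction it called 2.36% of all tested genes.

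In T, 0 genes of these 5 lists (17, 8, 34, 15 and 23 tested genes) passed between the genotypes by edgeR. An unadjusted p under 0.05 was seen for 2 of them, where 2.65% of all tested genes had one. Cth, which makes cysteine from cystathionine, had the smallest p, with 0.149 and 0.0721 CPM in the wt tumours against 0.586 and 0.978 in the deltaPOZ tumours (log2 fold change 2.80, SE 0.68, edgeR adjusted p = 1; DESeq2 adjusted p = 0.0394). Cth was the 1 gene of these lists that DESeq2 called between the T genotypes, where it called 0.298% of all tested genes. Between the lineages, the counts of these lists stand against 19.3% of all tested genes called higher in T and 16% called lower. Eif2ak4 was lower in T at 16.3 to 22.9 CPM against 72.6 to 122 in B (-2.31, SE 0.14, edgeR adjusted p = 0.000264), and Eif2ak1, the heme-regulated eIF2 kinase, was higher at 117 to 231 CPM against 53.7 to 63.6 (1.40, SE 0.22, edgeR adjusted p = 0.00497). Of the 15 genes around eIF2, 1 was called higher in T and 7 lower, of 17 mitochondrial synthetase genes 1 higher and 5 lower, and of the 8 scaffold and transfer RNA genes 0 higher and 6 lower. Of the 34 other ATF4 response genes 8 were called higher and 11 lower, and of the 23 sensing genes 1 higher and 3 lower. Slc6a9 stood at 38.3 to 103 CPM in T and at 0.0949 to 8.85 in B (5.74, SE 0.50, edgeR adjusted p = 0.000738), while Cth stood at 0.0721 to 0.978 in T and at 14.7 to 46.5 in B (-6.23, SE 0.51, edgeR adjusted p = 0.00061). The erythroid markers, given above, were higher in T as well, and their part in these differences was not tested.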

How the data were processed

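The authors deposited raw read counts per gene. The submitters' processing notes name TopHat2 2.0.10, SAMtools, HTSeq and DESeq, and the build mm10. Not given in the sources used here: annotation release, strand setting. Libraries were TruSeq Stranded mRNA, per the labels' protocols. Counts assigned to no gene (30.4 to 39.3% of a library) or to more than 1 gene (0.471 to 0.554%) were left out. Gene names, positions and exon lengths came from GENCODE M21 (GRCm38). The promoter window of 1 member is not reported here.

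Groups were taken from the titles of the records. All 8 libraries were fitted in edgeR 4.0.16 (TMM normalization, filterByExpr, glmQLFit and glmQLFTest, 1 mean per group), which left 16456 of 27639 genes with a count, 4 residual degrees of freedom and a biological coefficient of variation of 0.45. Benjamini-Hochberg adjustment ran over every gene fitted, with calls at 0.05, and a SE is the fold change divided by the square root of its F statistic. Each library came from a separate mouse, and its replicate number only names it. DESeq2 1.42.0 and limma 3.58.1 (voom) in R 4.3.3 were alternatives, with other filters, size factors, each lineage alone, a threshold of 0.1, removal of chromosome 4 and leaving out libraries. The libraries in doubt (B wt 2, T wt 1 and T deltaPOZ 2) were left out together after earlier results of these data. Figures used Python 3.11.15 with matplotlib 3.10.9. On simulated counts DESeq2 made more false calls than edgeR in every comparison. Both tools missed most of the smallest changes, and for the difference between lineages most of the middle-sized ones too.

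The members and lists were chosen with earlier results of these data known. Fold change, SE and p are given for Atf4 in every comparison. In the comparisons of genotype they are given for members at an unadjusted p under 0.05, at most 15, or the 3 with the smallest p, and between lineages for the 15 called members with the largest change. In the other lists, called genes or up to 3 with the smallest p were eligible.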

Additional observations from a re-analysis of the deposited data

How the results depend on the processing

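In the B tumours 0 members passed under size factors by median of ratios, a filter on a total of 10 counts, limma-voom, B libraries alone, a threshold of 0.1, removal of chromosome 4 or removal of any library, but 8 passed without a filter on low counts (all higher; 4.79% of all genes passed) and 2 by DESeq2. The count of higher members was 35 to 37 throughout, and 35 to 36 without 1 library. In T 0 passed in every setting; 15 to 39 members were higher without 1 library. Over both lineages 4 passed without the filter (3.21% of all genes) and 1 by DESeq2, and 32 to 39 were higher without 1 library. For the difference between lineages 3 passed without the filter (2.84% of all genes: Chac1, Slc7a11 and Ppp1r15a), and 3 to 16 members had a positive value without 1 library, 16 without T wt 2 and 3 without T deltaPOZ 1. Between lineages the 23 calls became 14 to 20 without 1 library and 2 without the 3 doubted libraries, where 14 members in place of 8 were higher in T; other settings gave 22 to 27 calls. The cause of these shifts was not tested. Among the members given with a fold change and SE, taken in the comparison where they are given, Atf4 alone changed sign, while other members did so, as the counts of higher members in T show. Atf4 went to -0.0525 in B without the 3 doubted libraries, and over both lineages to 0.0136 with the filter on a total of 10 counts and 0.000427 by limma-voom. Without 1 library it ran from -0.49 to 0.33 in T, from -0.20 to 0.21 over both lineages and from -0.59 to 0.23 for the difference. Of 827 values of single members under other settings, 39 lost a call, 16 gained one, 10 changed sign and the rest kept direction and call. No paired analysis was possible because a replicate number here is only a name and ties no samples together across groups. A left-out library leaves its group with 1 sample, which is then assumed to vary like the other groups. Shares of all tested genes called in such fits are not given here, so changed counts of called members cannot be set against them.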
